A study of Mus musculus with 6 samples.

Results

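The genes described here encode the structures that fix the corneal epithelium to the stroma beneath it: hemidesmosomes, the adhesion plaques on the basal face of epithelial cells, and anchoring fibrils, which tie the basement membrane to the stroma. The 8 genes were taken by name from the count tables, Col7a1, Col17a1, Itga3, Itga6, Itgb4, Dst, Plec and Cd151, out of 22007 gene symbols in all, and all 8 were present. OFBI corneas came from male C57BL/6J mice, 12 months after a single open-field blast (a charge of 350 g of C-4, a plastic explosive, 3 m away from awake animals). Naive corneas came from male C57BL/6J mice with the same 12-month label and the treatment label Naive. Each group had 3 libraries, each a pool of corneas (the number of animals in a pool is not given in the sources used here), and the age of the mice was not given either.

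In basal epithelial cells the integrin made of the alpha 6 and beta 4 chains binds laminin in the basement membrane from outside and the plakin plectin from inside, and plectin holds the keratin filaments. Type XVII collagen, a transmembrane collagen, and BPAG1e, the epithelial product of Dst, complete the plaque, while the tetraspanin CD151 accompanies the laminin-binding integrins, among them the alpha 3 chain with beta 1. Type VII collagen is secreted and forms the anchoring fibrils below the lamina densa. Loss of these proteins causes blistering disease of skin and, for several of them, of the ocular surface.

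The 2 collagens hold long stretches of coding sequence in which a GGN codon, for glycine, opens every run of 3 codons. The collagen triple helix requires this repeat, so it is a trait of collagens in general and not of these 2 genes alone. In the longest coding transcript of each gene in GENCODE mouse release 21 (GRCm38), the longest uninterrupted stretch ran over 75 such runs in Col7a1 and 56 in Col17a1, with a GC content of 60.7% and 64.1%. GGN codons made up 21.3% of the 2944 codons of Col7a1 and 19.1% of the 1470 codons of Col17a1. The opening 108 bases of each stretch, 5′ to 3′ on the coding strand with GGN codons in capitals, are as follows. That of Col7a1 is coding bases 7552 to 7659, spliced from exons 101 and 102 (chr9:108978632-108978892, plus strand), and that of Col17a1 is coding bases 1942 to 2049, spliced from exons 23 to 25 (chr19:47664397-47665875, minus strand).
Col7a1: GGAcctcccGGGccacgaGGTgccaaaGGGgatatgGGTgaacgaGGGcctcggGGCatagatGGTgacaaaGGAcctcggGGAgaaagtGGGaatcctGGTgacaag
Col17a1: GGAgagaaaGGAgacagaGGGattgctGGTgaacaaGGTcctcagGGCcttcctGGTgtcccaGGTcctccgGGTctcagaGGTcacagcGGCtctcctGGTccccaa

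The promoters of the same genes differed in composition. They are given because Col7a1 was the only member whose level passed the test and Col17a1 the most abundant member. RefSeq windows (GRCm38.p6) of 250 bases before to 50 after the annotated start matched 5 of the 8 genes. Short motifs were searched on both strands: the GC box GGGCGG, the AP-1 motif TGANTCA, the TATA box TATAAA and the CCAAT box CCAAT. Of 32851 windows of this length in the mouse, 35.7% held the GC box, 7.8% the AP-1 motif, 13.6% the TATA box and 37.4% the CCAAT box. The Col7a1 window (chr9:108953336-108953635, plus strand, 58.7% GC) held 1 GC box and 1 CCAAT box, and the Col17a1 window (chr19:47691993-47692292, minus strand, 46.3% GC) held 2 TATA boxes and 1 CCAAT box. Matches on either strand are in capitals, and a match is a description of the letters only.
Col7a1 promoter: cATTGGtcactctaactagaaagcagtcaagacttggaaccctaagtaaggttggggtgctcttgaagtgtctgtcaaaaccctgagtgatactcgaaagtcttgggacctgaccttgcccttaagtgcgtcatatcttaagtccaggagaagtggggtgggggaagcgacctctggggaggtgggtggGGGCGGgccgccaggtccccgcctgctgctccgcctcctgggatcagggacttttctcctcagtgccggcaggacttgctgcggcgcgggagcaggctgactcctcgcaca
Col17a1 promoter: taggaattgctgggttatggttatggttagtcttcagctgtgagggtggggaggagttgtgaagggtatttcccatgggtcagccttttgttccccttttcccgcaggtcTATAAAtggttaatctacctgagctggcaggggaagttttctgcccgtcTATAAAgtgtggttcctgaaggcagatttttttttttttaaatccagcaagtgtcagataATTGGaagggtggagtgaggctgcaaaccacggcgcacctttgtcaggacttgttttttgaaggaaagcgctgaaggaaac

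The libraries differed in depth with the group. OFBI libraries held 1173472 to 3410476 estimated counts and Naive libraries 41971752 to 47809779, a mean 16.7 times as high, and each of the 8 genes had fewer counts in every OFBI library than in any Naive library. All 6 libraries carried batch number 4, and the pools were counted as separate samples because the design text of the series calls them biological replicates. Correlations of log2 CPM were 0.758 to 0.846 between OFBI libraries and 0.982 to 0.988 between Naive libraries, and OFBI replicate 3, the shallowest, had the lowest correlations with the other OFBI libraries. Of 13941 genes tested, 8.41% were called higher and 10.4% lower in OFBI corneas (adjusted p below 0.05 by the quasi-likelihood test of edgeR). The tissue label held for both groups, with Krt12, the keratin specific to corneal epithelium, at a mean of 25570 CPM in OFBI and 9999 CPM in Naive corneas. Over 8 corneal epithelium markers, of which 3 were called higher and none lower, the summed level was 57800 to 75900 CPM in OFBI and 29300 to 30200 CPM in Naive libraries. Most of this sum was Krt12 and Krt5, while Tkt, Clu and Upk1b had log2 fold changes of -0.29, -0.23 and -0.69 and were not called. Over 4 basal epithelium markers (3 called higher, 1 lower) it was 24000 to 39400 CPM in OFBI and 9120 to 11500 CPM in Naive libraries, and 2 of these, Krt5 and Krt14, are also in the corneal list. The 5 stromal markers, 2 of them called lower, summed to 159 to 320 CPM in OFBI and 373 to 430 CPM in Naive libraries. The corneal endothelium markers summed to 1020 to 1090 CPM in OFBI and 1140 to 1180 CPM in Naive libraries, with Slc4a11 and Car3 called lower at log2 fold changes of -2.29 and -2.01. The conjunctival markers summed to 4070 to 5550 CPM in OFBI and 1750 to 1830 CPM in Naive libraries, with Krt13 and Krt4 called higher at 1.56 and 0.60. Eyelid skin markers summed to 0 to 14.8 CPM in OFBI and 9.47 to 9.60 CPM in Naive libraries, with none called. Muc5ac, Muc5b, Krt2, Lor and Krt77 were at 0 in all OFBI libraries and at most 0.485 CPM in the deeper Naive libraries, so these zeros do not tell the groups apart. Hepatocyte markers summed to 125 to 819 CPM in OFBI and 19.0 to 28.7 CPM in Naive libraries, and lymphocyte markers to 27.9 to 141 CPM in OFBI and 5.67 to 5.88 CPM in Naive libraries. Of 7 markers in each list, 4 were tested, and 4 hepatocyte and 3 lymphocyte markers were called higher. Striated muscle markers (3 called higher, 1 lower) summed to 109 to 259 CPM in OFBI and 141 to 145 CPM in Naive libraries. Myh6 was called higher at a log2 fold change of 6.04, and Myh4 lower at -2.17. Myh6 had 74.2, 1.28 and 60.8 CPM in OFBI replicates 1, 2 and 3. It had at most 1.27 CPM in Naive libraries, so OFBI replicate 2 did not stand apart. Vessel endothelium and Schwann cell lists each had 1 marker called lower. The vessel marker, Tek, was at 0 in all OFBI libraries and at 1.14 to 1.62 CPM in Naive libraries. In OFBI libraries 12 estimated counts make 3.519 to 10.23 CPM, so its zeros do not tell the groups apart either. Housekeeping genes summed to 6560 to 6860 CPM in OFBI and 4190 to 4530 CPM in Naive libraries, with Actb and Gapdh called higher at 1.03 and 1.07. The part of these cell types in the values below was not tested. In tissue pieces such as these, a different share of a cell type and a different amount of RNA per cell cannot be told apart.

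Together the 8 genes took up 1.06% to 1.31% of all counts in OFBI libraries and 1.06% to 1.09% in Naive libraries. One of the 8, Col7a1, was called higher and none was called lower, beside 8.41% of all genes called higher and 10.4% called lower. For 4 members the 3 OFBI values lay above the 3 Naive values without overlap, Col7a1, Col17a1, Itgb4 and Plec. This was so for 16.4% of all genes, and a further 29.9% lay below without overlap. The median log2 fold change was 0.07 over the 8 members and -0.20 over all genes tested.

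Col7a1 (chromosome 9, 108953586 to 108984875, plus strand) encodes the single chain of type VII collagen, which builds the anchoring fibrils. Its level was 496.5, 411.4 and 558.4 CPM (counts scaled to a common library total, with TMM factors) in OFBI replicates 1, 2 and 3, against 155.5, 186.0 and 205.7 CPM in Naive replicates 1, 2 and 3. Each OFBI library was above every Naive library, with a wide gap between the groups. The mean was 488.7 ± 73.8 CPM in OFBI and 182.4 ± 25.3 CPM in Naive corneas (SD, n = 3 each). Col7a1 rose 2.68-fold, with a 95% interval of 2.02 to 3.55 (log2 fold change 1.42, SE 0.17, adjusted p = 0.00842 by edgeR), and 93.8% of all genes tested had a lower log2 fold change. The call was lost by edgeR without Naive replicate 1 or 2 (log2 fold changes of 1.35 and 1.47, edgeR adjusted p = 0.0526 and 0.0604), where 0.802% and 0% of all genes were called higher, while DESeq2 and limma-voom kept it whichever library was left out. With a trend on GC content and exonic length removed (6.71% of genes called higher, 9.86% lower), the log2 fold change was 0.37 (edgeR adjusted p = 0.123), and with that trend taken from genes of at least 20 CPM (6.71% called higher, 8.45% lower) it was 0.63 (edgeR adjusted p = 0.0314). Over 32 alternatives the adjusted p ran from 5.45e-15 to 0.254, 28 of them made the call, and the sign was the same in all 32.

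**Figure D1:**
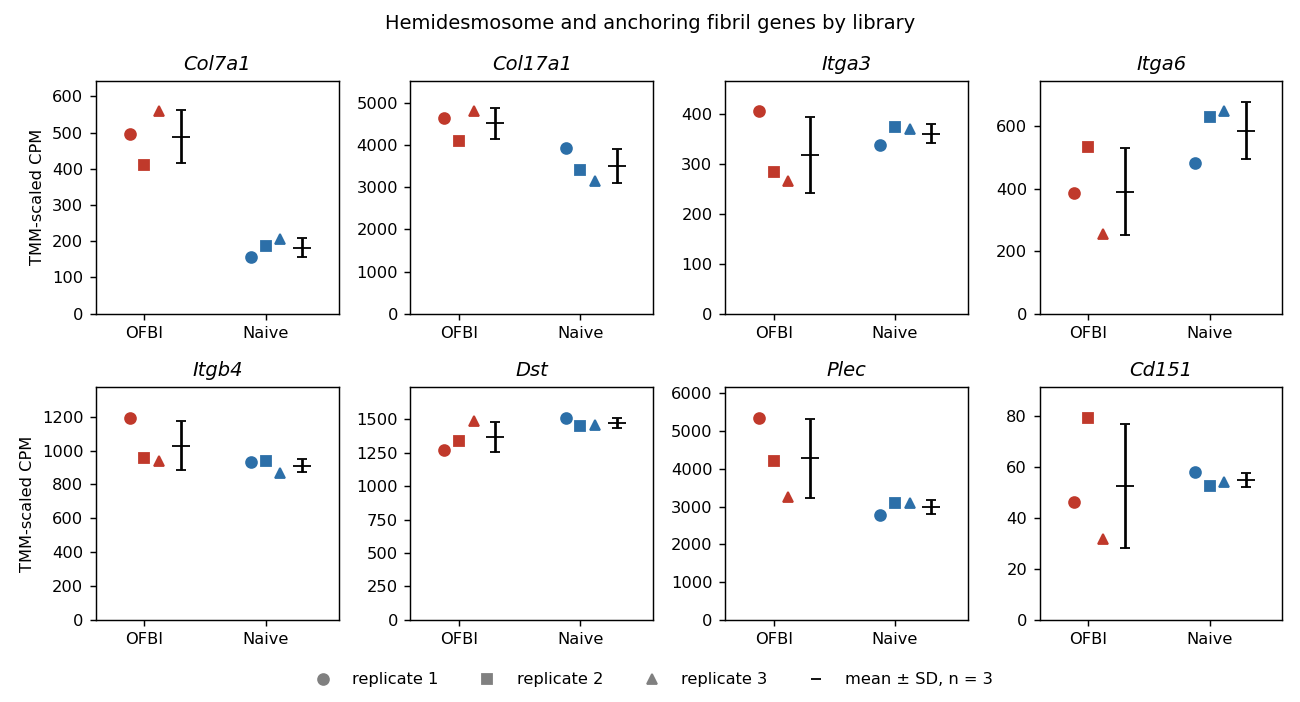
Level of each of the 8 genes in each library, in TMM-scaled CPM on axes that start at 0, with OFBI libraries in red and Naive libraries in blue and the mean ± SD of 3 libraries in black. Col7a1 shows 3 OFBI libraries between 411.4 and 558.4 CPM, all above the Naive libraries at 155.5 to 205.7 CPM, while the OFBI and Naive libraries of Itga3, Itga6, Dst and Cd151 overlap.

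Col17a1 (chromosome 19, 47646344 to 47692094, minus strand), the transmembrane collagen of the hemidesmosome, had 4646, 4103 and 4803 CPM in OFBI replicates 1, 2 and 3, against 3941, 3418 and 3147 CPM in the Naive replicates. The 3 OFBI libraries were above the 3 Naive libraries, by a narrow margin between OFBI replicate 2 and Naive replicate 1. The log2 fold change was 0.37 (SE 0.13), a fold of 1.29 with a 95% interval of 1.04 to 1.61, and it did not pass the test over all genes (edgeR adjusted p = 0.104). DESeq2 called it higher (adjusted p = 0.0322), along with Plec and Col7a1, at a background of 12.7% of genes called higher by that tool. With the GC and length trend removed the log2 fold change was -0.07.

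The integrin chains showed no called difference, and their fold changes pointed different ways. Itgb4 (chromosome 11, 115974709 to 116008412, plus strand) encodes the beta 4 chain, whose long cytoplasmic tail binds plectin. It had 1195, 953.0 and 939.0 CPM in OFBI replicates 1, 2 and 3, against 930.3, 936.7 and 865.6 CPM in the Naive replicates. The groups were separated only by the distance between 939.0 and 936.7 CPM, and the log2 fold change of 0.18 (SE 0.14) had a 95% interval of 0.905 to 1.41 on the fold scale (edgeR adjusted p = 0.416). Its partner Itga6 (chromosome 2, 71745616 to 71858416, plus strand), the laminin-binding alpha 6 chain, had 384.3, 534.0 and 253.5 CPM in OFBI replicates, against 482.3, 627.3 and 646.8 CPM in Naive replicates. OFBI replicate 2 lay within the Naive range and the other OFBI libraries below it, at a log2 fold change of -0.58 with an SE of 0.27 (edgeR adjusted p = 0.189) and a 95% interval of 0.43 to 1.04 on the fold scale. Itga3 (chromosome 11, 95044474 to 95076801, minus strand), the alpha 3 chain of a second laminin receptor, had 406.2, 284.3 and 265.6 CPM in OFBI replicates, against 339.4, 374.3 and 370.8 CPM in Naive replicates. OFBI replicate 1 was above all Naive libraries and OFBI replicates 2 and 3 below them, at a log2 fold change of -0.18 with an SE of 0.18 (edgeR adjusted p = 0.548). With the GC and length trend removed, Itga3 and Itgb4 were called lower (edgeR adjusted p = 0.029 and 0.0269). Their log2 fold changes were then -0.69 and -0.60, so that the sign for Itgb4 turned. With the trend taken from genes of at least 20 CPM, Itga3 was still called lower, at -0.60 (edgeR adjusted p = 0.0496), and Itgb4 was not, at -0.44 (edgeR adjusted p = 0.065).

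Cd151 (chromosome 7, 141467392 to 141471473, plus strand), the tetraspanin that associates with these integrins, was the lowest member on the CPM scale. It had 46.06, 79.39 and 31.8 CPM in OFBI replicates 1, 2 and 3, from 149, 248 and 34 estimated counts, against 57.94, 52.44 and 54.17 CPM in the Naive replicates. The OFBI libraries lay on both sides of the Naive range, with a coefficient of variation of 46.6% in OFBI and 5.13% in Naive corneas. The log2 fold change of -0.04 with an SE of 0.32 (edgeR adjusted p = 0.945) had a 95% interval of 0.579 to 1.63 on the fold scale. A fall or a rise within that interval remains possible, and the interval is not a limit of detection.

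The plakins Plec and Dst link the plaque to keratin filaments. Plec (chromosome 15, 76170974 to 76232574, minus strand) had 5362, 4208 and 3262 CPM in OFBI replicates 1, 2 and 3, against 2772, 3106 and 3096 CPM in the Naive replicates. OFBI replicate 1 was highest and OFBI replicate 3 lay just above the Naive range. Its log2 fold change of 0.52 (SE 0.19), a fold of 1.43 with a 95% interval of 1.05 to 1.95, did not pass the test (edgeR adjusted p = 0.105). It passed without OFBI replicate 3 (log2 fold change 0.67, edgeR adjusted p = 0.0128, 10.8% of genes called higher), and it was -0.51 with the GC and length trend removed. The annotated span of Plec shares 1401 bases with Parp10 on the same strand, a gene at 21.6 ± 6.59 CPM in OFBI and 25.1 ± 2.27 CPM in Naive corneas (SD, n = 3 each). Dst (chromosome 1, 33908225 to 34308661, plus strand) had 1273, 1335 and 1490 CPM in OFBI replicates, against 1514, 1449 and 1455 CPM in Naive replicates. OFBI replicates 1 and 2 lay below the Naive range and OFBI replicate 3 within it, and its log2 fold change of -0.11 with an SE of 0.11 (edgeR adjusted p = 0.558) had a 95% interval of 0.769 to 1.12 on the fold scale. Dst and Plec have 20 and 22 annotated transcripts, and Dst yields neuronal and muscle forms beside the epithelial BPAG1e, which counts per gene do not separate.

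No OFBI library was high or low throughout the 8 genes. OFBI replicate 1 had the highest OFBI values of Itga3, Itgb4 and Plec, replicate 2 those of Itga6 and Cd151, and replicate 3 those of Col7a1, Col17a1 and Dst. The coefficient of variation between OFBI pools ran from 8.13% for Col17a1 to 46.6% for Cd151, and that between Naive pools from 2.41% for Dst to 15.3% for Itga6. For each member except Col17a1 it was higher between OFBI than between Naive pools, and for Col7a1 the values were close, 15.1% and 13.9%.

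Levels of different genes were compared per exonic length, as TPM (counts per kilobase of annotated exons, scaled to the same total in each library). Col17a1 was the most abundant member in both groups, with 2547 ± 174 TPM in OFBI and 2491 ± 286 TPM in Naive corneas (SD, n = 3 each). Plec followed with 808 ± 235 TPM in OFBI and 706 ± 44.9 TPM in Naive corneas, and Itgb4 with 499.6 ± 90.1 and 555 ± 23.7 TPM. Col17a1 thus stood well apart from both. Plec and Itgb4 overlapped between OFBI libraries and not between Naive libraries. Below them in OFBI corneas came Itga3 at 190.7, Col7a1 at 160.6, Itga6 at 148.4 and Dst at 112.4 TPM, where neighbours in this order overlapped, and then Cd151 at 65.6 TPM. In Naive corneas the order was Itga6 at 277, Itga3 at 270.7, Dst at 153, Cd151 at 85.6 and Col7a1 at 75.8 TPM. There Itga6 and Itga3 overlapped, as did Cd151 and Col7a1, and the other neighbours did not. Col7a1 had rank 5 of the 8 in OFBI corneas and rank 8 in Naive corneas. With the longest transcript in place of all exons Itga6 moved above Itga3 in OFBI corneas too, and Col7a1 had rank 7 there and rank 8 in Naive corneas. The groups were not tested against each other on this scale, and the orders are a description of each group.

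**Figure D2:**
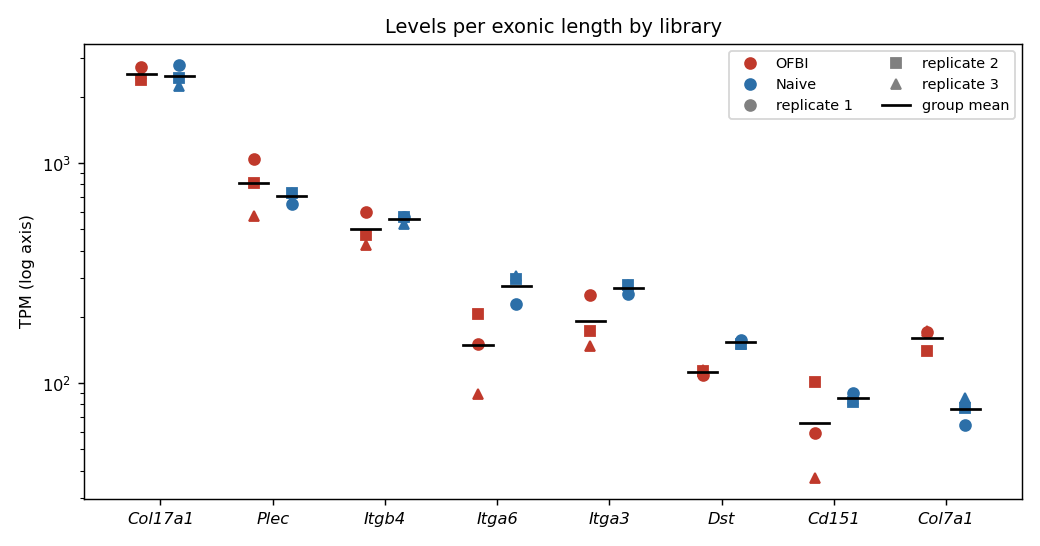
Level per exonic length of the 8 genes in TPM on a log axis, with genes ordered by their Naive mean, OFBI libraries in red to the left of Naive libraries in blue and black bars at the means of 3 libraries. Col17a1 has means of 2547 TPM in OFBI and 2491 TPM in Naive libraries, and Col7a1 has means of 160.6 TPM in OFBI and 75.8 TPM in Naive libraries.

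Fold changes differed with GC content over all genes, so those of the members are given beside it. Col7a1 and Plec had the highest GC content of the longest transcript, 61.6% and 61.3%, and the highest log2 fold changes, while Itga6 and Dst had the lowest GC content, 48.9% and 49.5%, and log2 fold changes of -0.58 and -0.11. Over all genes tested the median log2 fold change was -0.66 among 780 genes of at most 40% GC and 0.71 among 641 genes above 60% GC. Where the mean reached 100 CPM these medians were -0.36 over 63 genes and 0.76 over 135 genes, beside 1.42 for Col7a1 and 0.52 for Plec.

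**Figure D3:**
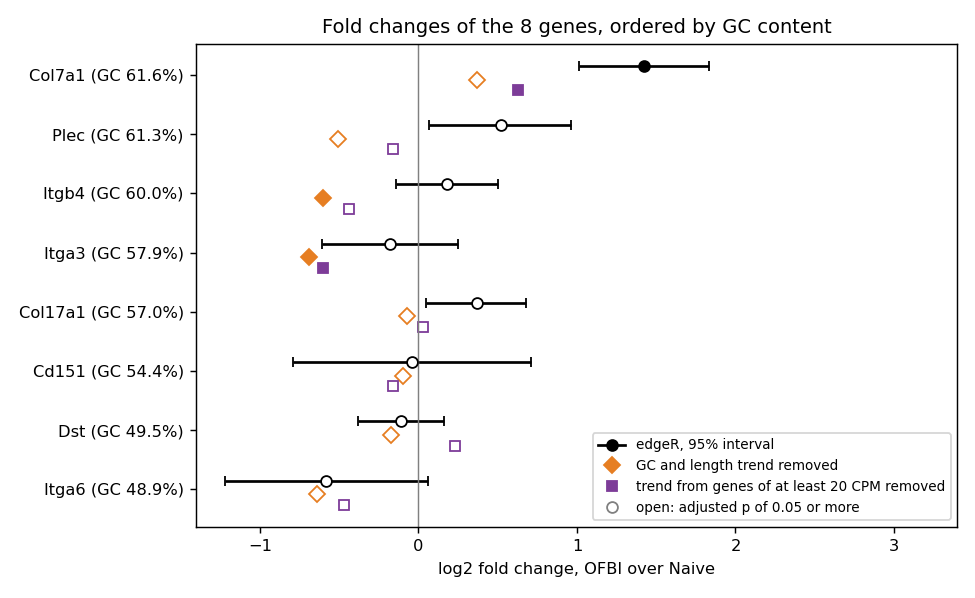
Log2 fold change of OFBI over Naive for the 8 genes, ordered from high to low GC content, as fitted by edgeR with 95% intervals (black) and with a trend on GC content and length removed in both ways described (orange and purple). Filled symbols have an adjusted p below 0.05, and Col7a1 stays above 0 in each, at 1.42, 0.37 and 0.63.

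Ratios between members within a library need no scaling between libraries, and 8 pairs that meet in one structure were compared by an exact permutation test over the 6 libraries, two-sided, whose smallest possible p is 0.1. Col7a1 over Itgb4 had log2 ratios of -1.27, -1.21 and -0.75 in OFBI libraries, against -2.58, -2.33 and -2.07 in Naive libraries. The groups did not overlap and differed by 1.25 on the log2 scale, a factor of 2.38 (exact permutation p = 0.1, adjusted over 8 pairs 0.267). Col7a1 over Col17a1 had log2 ratios of -3.23, -3.32 and -3.10 in OFBI libraries, against -4.66, -4.20 and -3.94 in Naive libraries. These did not overlap either and differed by 1.05 (exact permutation p = 0.1, adjusted 0.267). Col7a1 over Plec, a pair of nearly equal GC content that was added after the data were seen, had log2 ratios of -3.43, -3.35 and -2.55 in OFBI libraries and -4.16, -4.06 and -3.91 in Naive libraries, again without overlap and with a difference of 0.93 (exact permutation p = 0.1).

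Within the plaque itself, the integrin pair Itga6 over Itgb4 had log2 ratios of -1.64, -0.84 and -1.89 in OFBI libraries and -0.95, -0.58 and -0.42 in Naive libraries. OFBI replicate 2 fell inside the Naive range, and the difference was -0.81 (exact permutation p = 0.2, adjusted 0.267). Dst over Plec had log2 ratios of -2.07, -1.66 and -1.13 in OFBI libraries and -0.87, -1.10 and -1.09 in Naive libraries. OFBI replicate 3 and Naive replicate 2 were separated by a small margin, with a difference of -0.60 (exact permutation p = 0.1, adjusted 0.267). For Itga3 over Itga6, Cd151 over Itga3, Col17a1 over Itgb4 and Plec over Itgb4 the groups overlapped, with differences of 0.43, 0.04, 0.20 and 0.32 and exact permutation p of 0.4, 1, 0.2 and 0.2. None of the 8 adjusted values was below 0.267, and with 3 libraries in each group none could fall below 0.1.

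**Figure D4:**
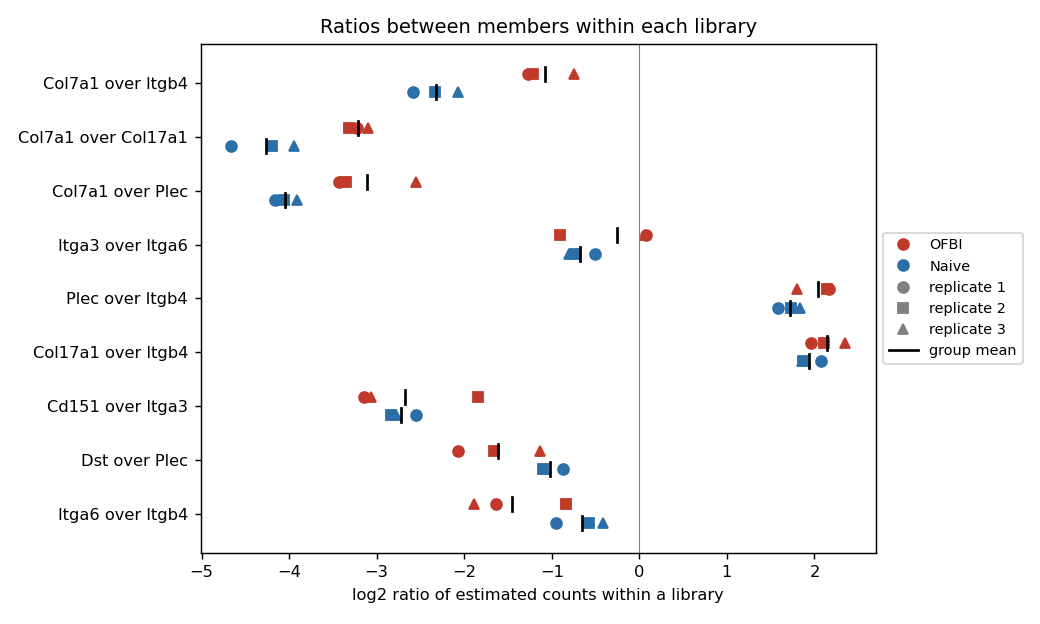
Log2 ratio of the estimated counts of pairs of members within each library, with OFBI libraries in red above Naive libraries in blue, a symbol for each replicate and black bars at the group means. The 3 ratios with Col7a1 on top are higher in each OFBI library than in any Naive library, and those of Cd151 over Itga3 overlap, with means of -2.68 in OFBI and -2.72 in Naive libraries.

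Other genes of the attachment zone were taken from a list of 45, of which 44 were tested, 11 were called higher and 7 lower, beside 8.41% and 10.4% of all genes. Its median log2 fold change stood at 0.03, beside -0.20 over all genes. The keratins that plectin and BPAG1e anchor were higher, and Lama3, a chain of the laminin that the integrins bind, was lower. With the GC and length trend removed in either way, 10 of the 18 calls were kept, among them all 4 keratins, Lama3, Adam10, Egfr, Trp63 and Mst1r. All 18 kept their direction in each of 32 alternatives, and without Naive replicate 2 edgeR called 0 genes of any kind, with 2441 at an unadjusted p below 0.05. DESeq2 without that library called 9 of the 44 higher and 5 lower, and limma-voom 10 and 6.

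All 4 keratins tested rose, with a median log2 fold change of 1.56. Krt14, a keratin of basal cells, had 1842, 2117 and 1768 CPM in OFBI replicates and a mean of 545.8 ± 7.82 CPM in Naive corneas (SD, n = 3). The log2 fold change came to 1.81 with an SE of 0.12 (edgeR adjusted p = 0.0053). Krt5, the partner of Krt14 in the filament, had 18980, 25760 and 34040 CPM in OFBI replicates and a mean of 7734 ± 1055 CPM in Naive corneas, with a log2 fold change of 1.76 (SE 0.23). Krt15, a basal and limbal keratin, and Krt12 had log2 fold changes of 1.14 and 1.35.

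Laminin-332 is the ligand of the hemidesmosome integrin, and of its chains Lama3 fell and Lamb3 did not pass the test. Lama3, the alpha chain, had 284.1, 253.9 and 170.2 CPM in OFBI replicates and a mean of 454.6 ± 16.3 CPM in Naive corneas (SD, n = 3). The log2 fold change came to -0.94 with an SE of 0.20 (edgeR adjusted p = 0.0241). The call of Lama3 was lost by edgeR without Naive replicate 1, 2 or 3 (edgeR adjusted p = 0.107, 0.111 and 0.102). DESeq2 and limma-voom kept it whichever library was left out. Lamb3, the beta chain, had a log2 fold change of -0.47 (edgeR adjusted p = 0.157), and its OFBI libraries too lay below all Naive libraries. With the GC and length trend removed Lamb3 was called lower, at -0.84 (edgeR adjusted p = 0.0331). With the trend taken from genes of at least 20 CPM it was not, at -0.71 (edgeR adjusted p = 0.0532).

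Of 13 basement membrane neighbours edgeR called only Lamb2, a laminin beta chain, which rose by 0.68 on the log2 scale (SE 0.16, edgeR adjusted p = 0.0331). None was called lower, while the list's median was -0.34. Nid1 lay furthest down, at -1.04 (edgeR adjusted p = 0.0684), and its OFBI libraries were below all Naive libraries. With the GC and length trend removed Lamb2 had 0.08 (edgeR adjusted p = 0.783), and limma-voom did not call it either (adjusted p = 0.0574). Lama5 and Frem2, the most abundant of them, had log2 fold changes of -0.75 and -0.36 (edgeR adjusted p = 0.0512 and 0.144). Lama5 was called lower by DESeq2 and limma-voom (adjusted p = 0.0078 and 0.038) and with the trend removed, at -1.60 (edgeR adjusted p = 0.0128). Frem2 was called lower by DESeq2 (adjusted p = 0.0491) and with the trend removed, at -0.63 (edgeR adjusted p = 0.0317). With the trend taken from genes of at least 20 CPM Frem2 was not called, at -0.36 (edgeR adjusted p = 0.136). Of 9 genes that process, shed or fold these proteins, 4 were called higher and none lower. They were Bmp1, which trims the type VII procollagen, Serpinh1, a collagen chaperone, Furin, a proprotein convertase, and Adam10, a membrane sheddase, with log2 fold changes of 0.87, 0.91, 1.01 and 1.32. With the GC and length trend removed Adam10 kept its call at 1.74, and Bmp1, Serpinh1 and Furin did not, at 0.37, 0.70 and 0.56 (edgeR adjusted p = 0.309, 0.078 and 0.178). Tgm2, a crosslinking enzyme, was the most abundant of the 9 and had 963.1 ± 82.1 CPM in OFBI and 857.6 ± 38.03 CPM in Naive corneas (SD, n = 3 each, edgeR adjusted p = 0.375).

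Of 6 regulators 4 were called lower, and none was called higher. Fyn, which was not called, lay at 1.70 on the log2 scale (edgeR adjusted p = 0.0768), with its OFBI libraries above all Naive libraries. Trp63, a transcription factor of basal epithelium, fell by 1.08 on the log2 scale (SE 0.18, edgeR adjusted p = 0.0147), to 171.0 CPM in OFBI corneas, against 361.4 CPM in Naive corneas. Egfr, the receptor of epidermal growth factor, fell by 0.98 (SE 0.19, edgeR adjusted p = 0.0206). The receptor kinase genes Met and Mst1r had log2 fold changes of -0.90 and -0.85, and with the trend removed Met was no longer called (-0.76, edgeR adjusted p = 0.0568). Among 4 other plakins Evpl, which encodes envoplakin, rose by a log2 fold change of 1.07, and Dsp, the desmosomal plakin, had one of -0.24 (edgeR adjusted p = 0.0103 and 0.251). With the trend removed in its 2 ways Evpl had 0.17 and 0.32 and was not called (edgeR adjusted p = 0.45 and 0.131). Dsp then had -0.47 and -0.26 and was called lower in the first way only (edgeR adjusted p = 0.04 and 0.205). Among 5 adhesion partners the tetraspanin genes went apart, with Cd82 called higher at 0.90 and Cd9 called lower at -1.35 (edgeR adjusted p = 0.0497 and 0.030). Neither was called with the trend removed, at 0.75 and -0.95 (edgeR adjusted p = 0.0844 and 0.0985). Cd82 also lost its call with limma-voom (adjusted p = 0.0808) and without 5 of the 6 libraries in turn. Bmp1, Furin and Met likewise kept their edgeR call in only 1 of the 6 fits with 1 library left out. Cd9, Serpinh1, Lamb2 and Mst1r kept it in 2 of these 6 fits. Furin, Serpinh1 and Met were not called by limma-voom either (adjusted p = 0.0641, 0.0827 and 0.133). Itgb1, the beta chain that pairs with the alpha 3 chain, had 253.3 ± 25.7 CPM in OFBI and 238.3 ± 31.7 CPM in Naive corneas (SD, n = 3 each, edgeR adjusted p = 0.735).

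**Figure D5:**
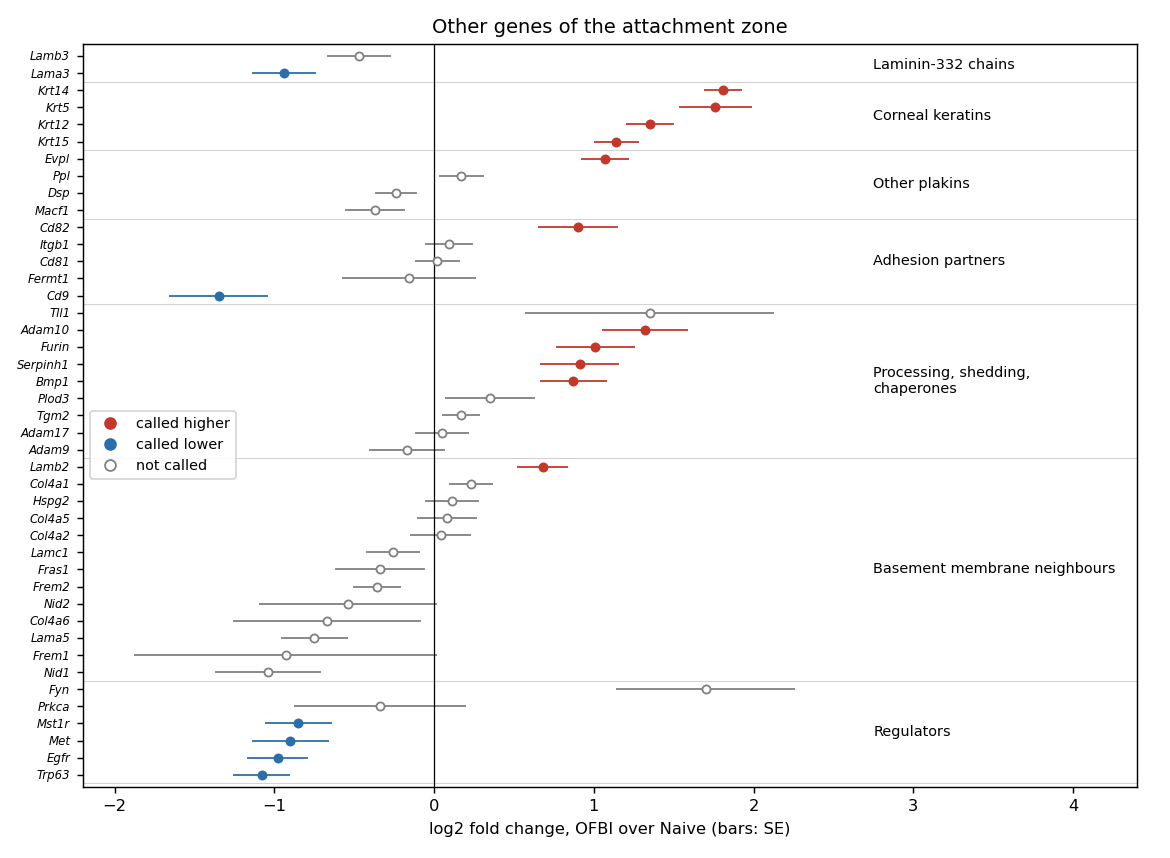
Log2 fold change of OFBI over Naive, with SE bars, for tested genes of the attachment zone outside the 8, grouped by role. Red marks genes called higher, blue those called lower and open grey those not called. The 4 keratins lie between 1.14 and 1.81 and the laminin genes Lama3 and Lamb3 at -0.94 and -0.47.

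For each member the gene with the most alike profile over the 6 libraries was the one with the smallest root mean square difference in gene-centred log2 CPM, among the 7109 genes whose mean reached 20 CPM. It was Cebpa for Col7a1 (0.064), Sh3bp2 for Col17a1 (0.050), Rras2 for Itga3 (0.055) and Cyp4a12a for Itga6 (0.070). It was Pip5k1c for Itgb4 (0.025), Ppm1f for Dst (0.035), Fzd8 for Plec (0.059) and Vopp1 for Cd151 (0.072). The median difference over all genes was 0.42 to 0.84, depending on the member.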

How the data were processed

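RNA of pooled corneas was measured in 6 libraries. The authors deposited 1 table of estimated counts per library, in whole numbers with no scaling for depth, a unit read from the values. Per the labels' protocols, 2 µg of total RNA went into a stranded kit. Tools named, per the submitters' processing notes, are FastQC, HISAT2, StringTie and DESeq2, with build GRCm38. For annotation release and strand setting nothing is given in the sources used. Multiples of 4 made up 39.4% to 50.4% of values from 1 to 40, so about 4 counts may stand for 1 fragment. This is an inference from the values.

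Rows sharing a symbol were summed. Tests used R 4.3.3 and edgeR 4.0.16 (filterByExpr, TMM, quasi-likelihood fit on group, Benjamini-Hochberg, two-sided, threshold 0.05). The procedure was tried on simulated data, where 200 of 13941 genes were set to differ. Those set to differ by a factor of 2 were called in 13.3% of cases. For a factor of 4 this was 76%, and false ones made up 3.96% of the calls. In the data themselves 1173 genes were called higher and 1446 lower, and the adjusted p depends on how many genes differ. The 2 rates therefore hold for that setting only, and the rate in the data was not tested. The lack of a call alone does not exclude a difference by a factor of 2 or 4. SE is the size of the log2 fold change over the root of F. Alternatives were DESeq2 1.42.0, limma-voom (limma 3.58.1), other scalings and filters, a replicate block, thinning, counts divided by 4, GC and length trends (splines of log counts for each library, used as offsets), and leaving out each library. TPM used GENCODE exon lengths. Members, lists and tests were chosen with earlier results of these data known. All 8 members, all called list genes, and the 2 most abundant of each list were named, except that values of a gene taken by this rule are not reported here. Nothing says that pools share no animals, so p-values measure the spread between these pools. Same-numbered libraries did not deviate together. The added alternatives (leaving out libraries with DESeq2 and limma-voom, the trend from genes of at least 20 CPM, and the trend with the block) and 1 added pair were chosen after seeing the data.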

Additional observations from a re-analysis of the deposited data

How the results depend on the processing

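Col7a1 kept its direction in all 32 alternatives and its call in 28. The count of members called higher, 1 of 8, was 3 with DESeq2, 3 with all libraries thinned, 2 with counts divided by 4, 0 with the GC and length trend removed and 0 with that trend and the replicate block together, and it ran from 0 to 3 with 1 library left out. The count called lower, 0, was 2 with the GC and length trend removed, 1 with that trend from genes of at least 20 CPM, and 0 to 1 with 1 library left out. The calls with 1 library left out come from edgeR, DESeq2 and limma-voom, and with edgeR no member was called without Naive replicate 1 or 2. The causes were not tested.

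Pathway genes called higher, 11, were 7 with limma-voom, 6 with library size only, 7 without a filter, 5 with the GC and length trend removed in either way or with the block added, 4 at an adjusted p below 0.01, and 0 to 15 with 1 library left out. Those called lower, 7, were 12 with the GC and length trend removed, 1 at an adjusted p below 0.01 and 0 to 12 with 1 library left out. Over all genes, the 1173 called higher were 1905 with DESeq2, 346 with the trend and block, 191 at an adjusted p below 0.01, and 0 to 2434 with 1 library left out. The 1446 called lower were 910 without a filter, 579 with Naive libraries thinned, 414 with all libraries thinned, 187 with the trend and block, 31 at an adjusted p below 0.01, and 0 to 2898 with 1 library left out. Scaled by library size only, 29.8% of all calls were higher ones (44.8% with TMM), and the median of all genes was -0.40.

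Replicate numbers did not pair the libraries: deviations of same-numbered libraries correlated at -0.0027, -0.0175 and 0.00783. With the replicate block the log2 fold change of Col7a1 was 1.42 (edgeR adjusted p = 0.00795), 7 pathway genes and 540 genes in all were called higher, and 253 genes lower.

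Signs turned as follows, in log2 fold changes. Col17a1 had -0.07 with the GC and length trend removed and -0.06 with the block added. Itgb4 had -0.02 with library size only, -0.60 with the trend removed with or without the block and -0.44 with the trend from genes of at least 20 CPM. Plec had -0.51, -0.55 with the block and -0.16 with that later trend. Dst had 0.01 with all libraries thinned and 0.23 with the later trend. Cd151 had 0.03 with limma-voom, 0.06 with Naive libraries thinned, 0.05 with counts divided by 4 and -0.51 to 0.23 with 1 library left out. Itgb1 had -0.11 with library size only and -0.03 to 0.24 with 1 library left out. Tgm2 had -0.03 with library size only, -0.20 with the trend removed, -0.21 with the block added and -0.17 with the later trend. Cd151 rests on 34 estimated counts in OFBI replicate 3, and its SE was 0.32 in the fit to all libraries and with either thinning.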
